A study of Macaca mulatta with 32 samples.

Results

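Long-range exonic circRNAs were taken as the exon-derived circular RNAs whose 2 junction ends lay 50 kb or more apart on the chromosome. A circRNA was included when the deposited table gave its type as exon and its end minus its start was 50000 or more, and 2513 circRNAs met this rule. They made up 7.32% of the 34321 exonic circRNAs and 4.76% of all 52828 circRNAs listed in macaque brain. The span is the genomic distance between the ends of the back-splice junction, introns included, so it is not the length of the circle, and the table does not give the exons that a circle holds.

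The libraries came from 8 socially housed rhesus macaques (Macaca mulatta), males and females of 10 or 20 years, for which the study names no treatment or genetic change. Total RNA was used from 5 neocortical areas, named prefrontal (PFC), posterior cingulate (PCC), temporal (TC), parietal (PC) and occipital (OC) cortex, from CA1 and the dentate gyrus (DG) of the hippocampus, and from cerebellar cortex (CB). Animals of the same age and sex were pooled in pairs, which gave 4 pools (10F, 10M, 20F and 20M, for 10- or 20-year-old females or males), and each pool was sequenced once in each of the 8 regions, 32 libraries in all. Thus a region was represented by 4 libraries and an age by 16, but each age rested on 2 pools, and differences between the individual animals of a pool cannot be seen. Messenger RNA was removed on oligo-dT beads, ribosomal RNA was depleted, and linear RNA was digested with the exonuclease RNase R before sequencing. The table lists circRNAs only, so the tissue labels could not be checked against marker messenger RNAs.

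CircRNAs arise by back-splicing, in which the spliceosome joins the donor site at the end of an exon to an acceptor site further upstream in the same transcript, which leaves a closed ring without a cap or a poly(A) tail. The joined sites are often flanked by long introns. In brain, where circRNAs are abundant, many of the hosts are large genes of synapses and of neuronal signalling, and genes of this kind are also those that can hold junction ends far apart.

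For a part of these circRNAs the study had designed divergent primers, which point away from each other on the linear transcript and give a product only across the back-splice junction. The primers of 3 long-range circRNAs are shown because they are the designed sequences that define these circles in the sources used here. They are written 5′ to 3′ in lower case, with no part marked. The host CACNB2 encodes the β2 subunit and CACNA1D the pore-forming Cav1.3 subunit of voltage-gated calcium channels, and ERC1 encodes a scaffold of the presynaptic active zone.
CACNB2 forward: gccaagcaagggaaattctact
CACNB2 reverse: ggtcctcctccagagatacatc
CACNA1D forward: ccgagaacgaggaagaagg
CACNA1D reverse: ccatccattcctaacataagca
ERC1 forward: agaaatcttgaaggaggtggaa
ERC1 reverse: tatcctgaatctgcttcgtctt

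These primers belong to the circRNAs at chr9:18698631-18806186 (CACNB2, 107555 bases), chr2:82639850-82692423 (CACNA1D, 52573 bases) and chr11:1141773-1191816 (ERC1, 50043 bases), in the coordinates of the table, whose genome build is not given in the sources used here. They were listed in different numbers of libraries. In the unit of the table, TPM, circCACNA1D was listed in 4 libraries only, at 15.7 and 20.2 TPM in PFC of pools 10F and 10M and at 3.46 and 25.5 TPM in PC of pools 20F and 20M, from 79 back-splice reads. CircCACNB2 was listed in 12 libraries, 3 of them of CB, at up to 38.6 TPM, and circERC1 in 24 libraries at up to 90.2 TPM. A further long-range circRNA with designed primers, that of RIMS2 at chr8:106570481-106652275 (81794 bases), from a gene for an active zone scaffold, was listed in 21 libraries at up to 86.1 TPM and was at 0 in the 4 DG libraries.

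The values in the table were whole numbers of back-splice reads multiplied by a constant for each library, so the reads behind each value could be recovered, and 2 reads was the lowest number listed. Total back-splice reads ranged from 18813 (CB of pool 10F, where 1 read equalled 18.7 TPM) to 894932 (PCC of pool 20F), with medians of 128018 at 10 years and 192168 at 20 years. A value of 0 therefore meant fewer than 2 reads at very unequal depths.

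The long-range circRNAs were rarer per circle than the shorter ones. They held 341936 back-splice reads, 6.21% of the exonic reads. A long-range circRNA had a median of 14 reads (quartiles 6 and 47) against 15 (6 and 57) for the 31808 shorter exonic circRNAs, and 54.8% of them (1376) were seen in 1 library against 50.1% of the shorter ones. In 16 or more libraries were 136 long-range circRNAs, 5.41% against 7.42%. The filter of the study, which asks for reads in several areas, in 6 libraries or for 30 reads in all, kept 822 (32.7%) against 35.8% of the shorter ones. Of these, 352 passed by their presence in 2 or more areas, 54 by 6 libraries and 416 by 30 reads alone, 92 of which came from a single library. The remaining 1691 did not pass and entered no test.

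Spans were crowded at the lower end. The median was 76456 bases and the widest span 199473, and the widest circRNA of any type spanned 199719, so the table stops near 200 kb. Between 50 and 100 kb lay 1756 circRNAs, of which 34.6% passed the filter, between 100 and 150 kb lay 524 (30%), and above 150 kb lay 233 (24.9%). The share seen in a single library was 53.7%, 55.7% and 60.5% in these bands. The threshold itself separated no distinct groups. Just outside were a circRNA of NTRK2, the receptor of brain-derived neurotrophic factor, at 49967 bases with 30 reads in 2 libraries, and one of ENSMMUG00000030795 at 49997 bases with 2 reads. Just inside were a circRNA of MYT1L, a neuronal transcription factor, at 50007 bases with 99 reads in 6 libraries, and one of the kinase gene RPS6KC1 at 50026 bases with 72 reads in 2 libraries.

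**Figure D1:**
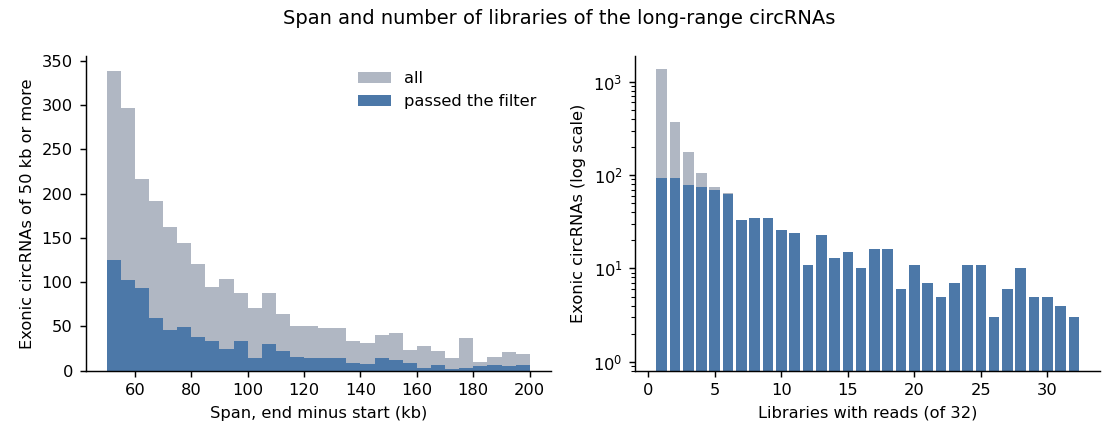
Left, number of exonic circRNAs of 50 kb or more by span in bins of 5 kb; right, their number by how many of the 32 libraries had reads, on a log axis. Gray, all 2513; blue, the 822 that passed the filter. Counts fall from 50 kb toward 200 kb, 1376 circRNAs sit at 1 library, and 3 reach all 32.

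A small number of circles carried most of the reads. The first member by reads held 15.2% of all long-range reads, the first 10 held 39.9% and the first 100 held 72.4%, whereas the same ranks of the shorter exonic circRNAs held 1.88%, 10.4% and 33.8%. Only 3 long-range circRNAs had reads in all 32 libraries, among them those of STK39 (chr12:31689144-31754904) and RERE (chr1:11564081-11637812).

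The circRNA with most reads came from C6ORF142 (MLIP in the reference annotation, a gene first described for a lamin-interacting protein of muscle), at chr4:53822249-53875750 with a span of 53501 bases. Its 51895 reads were 71.9% of all exonic back-splice reads of its host. STK39, which encodes the kinase SPAK that regulates cation-chloride cotransporters, gave 2 of the first 10, one of 65760 bases with 19201 reads and one of 115889 bases (chr12:31639015-31754904) with 12802 reads, and both ended at the same base. CTBP2, which encodes a transcriptional corepressor and, from another promoter, a protein of synaptic ribbons, gave a circRNA of 72257 bases (chr9:124638758-124711015) with 9610 reads. This circle was nearly all that the host gave, 98.4% of its exonic reads. The remaining circRNAs of the first 10 were those of ENSMMUG00000005637 (CEP112, a centrosomal protein, 9320 reads), SNTG1 (γ1-syntrophin, a scaffold of the dystrophin complex, 9037), RERE (a nuclear corepressor of the atrophin family, 8291), ATP9B (a phospholipid-transporting ATPase of the Golgi, chr18:72438949-72524151, 5844), DNM3 (dynamin 3, a GTPase of endocytosis, 5193) and DENND1A (an exchange factor for RAB35, 5069). They differed in their place within the host, since the DNM3 circle held 71.9% of its host's reads and the ATP9B circle 6.95%.

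At the far end of the span, the 5 widest circRNAs seen in at least 4 libraries came from ZCCHC7 (199218 bases, a zinc finger protein, 77 reads), ZFPM2 (198466, a cofactor of GATA factors, 308), ATRNL1 (197903, attractin-like 1, 106), DPP10 (197335, an auxiliary subunit of Kv4 potassium channels, 35) and AGBL4 (195824, a cytosolic carboxypeptidase gene whose identifier the reference names BEND5, 64). Each was at 0 in most libraries. That of ZFPM2 reached the most libraries, 9, with its highest values of 47.3 TPM in CA1 of pool 10M, 39.5 in CA1 of 20M and 38.6 in DG of 20M.

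The 2513 circRNAs came from 886 hosts, 11.8% of the 7523 hosts of exonic circRNAs, and 403 of these hosts (45.5%) gave 1 each. In contrast, 40 hosts gave 10 or more and 555 in all. ATP9B gave the most, 33 circRNAs from 11 different starts and 11 different ends between positions 72411714 and 72661653 of chromosome 18. Other hosts with many were DGKI (diacylglycerol kinase iota) with 21, MAD1L1 (a mitotic checkpoint protein) with 20, and RIMS2 and CADPS2 (a priming factor of dense-core vesicles) with 18 each. Many members from a host did not mean that the host's circRNA reads were mostly long-range. The long-range share of the host's exonic reads was 75.6% in RIMS2 and 52.9% in MAD1L1, but 37.7% in CADPS2, 16% in ATP9B and 7.25% in DGKI.

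Long-range circRNAs were built from junction ends that other circRNAs also used. At least 1 end was shared with another listed circRNA of any type in 93.2% of them (2342) against 73.7% of the shorter exonic ones. Both ends were shared in 62.7% against 29.1%. The gap was present at low and at high read numbers, with both ends shared in 54.7% against 21.3% at 2 to 10 reads and in 82.7% against 47.1% above 100 reads. Inside 2124 of them (84.5%) lay at least 1 shorter exonic circRNA of the same host, 3 in the median, and in 236 of these (11.1%) the long-range circRNA had more reads than all nested ones together. The circle of C6ORF142 was one of these, with 51895 reads against 17668 for the 5 circRNAs nested in it, whereas the 16 circRNAs nested in a RIMS1 circle of 57503 bases had 43389 reads against its 86. By strand they were balanced, 1262 plus and 1251 minus, and 2.47% lay on the X chromosome against 2.31% of the shorter ones. Members of a host that share ends are not independent observations.

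Lists of genes by function described the hosts, and they were read against the 11.8% of all hosts that gave a long-range circRNA. The lists hold many very large genes, and gene size was not taken into account. In the presynaptic active zone list, 13 of 23 hosts gave 98 circRNAs, among them RIMS1, RIMS2, ERC1, ERC2, CADPS2, UNC13C and STXBP5, and the one with most reads was a RIMS2 circle (chr8:106595594-106652275, 2831 reads). In the postsynaptic density, 7 of 17 hosts gave 50, led by HOMER1 (chr6:75625287-75683702, 626 reads), a scaffold that binds metabotropic glutamate receptors. Ion channels gave 64 from 16 of 37 hosts, led by the potassium channel gene KCNH1 (514 reads), and neurotransmitter receptors 25 from 14 of 34, led by the glutamate receptor gene GRM8 (101 reads in 4 libraries). Adhesion and guidance genes gave 107 from 41 of 73, led by MDGA2 (1202 reads), a membrane-anchored regulator of neurexin and neuroligin binding. These synaptic and surface genes were frequent hosts but carried few of the reads, from 0.123% of long-range reads for receptors to 4.31% for the active zone.

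Kinases and phosphodiesterases held more reads than any other of the 13 lists, 18.0% of the long-range reads from 160 circRNAs of 28 of 42 hosts, led by STK39. The long-range circRNAs of STK39 alone held 37151 of the 61504 reads of this list. RNA-binding and transcription genes followed with 7.99% from 118 circRNAs of 25 of 44 hosts, led by RERE, and cytoskeletal and GTPase regulators held 4.02% from 123 of 27 of 49 hosts, led by DNM3. Very long genes of common fragile sites gave 114 circRNAs from 17 of 23 hosts but 1.94% of the reads, led by WWOX (887 reads). Glial genes gave fewer circRNAs in number, although the shares of hosts in the oligodendrocyte and astrocyte lists, 15.4% and 38.5%, were not below the 11.8% of all hosts. In the oligodendrocyte list 2 of 13 hosts gave 5 circRNAs, led by QKI (51 reads), in the astrocyte list 5 of 13 gave 16, led by CTNND2 (157 reads), and none of the 3 hosts of the microglia and endothelium list gave any. The cerebellar neuron list gave 44 circRNAs from 7 of 12 hosts, led by CADPS2 (350 reads).

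The share of exonic back-splice reads held by long-range circRNAs differed by region and was lowest in CB. In the 4 CB libraries it was 3.44%, 3.37%, 2.49% and 3.55% (10F, 10M, 20F and 20M), a median of 3.41%, and in the 28 other libraries it ranged from 3.62% to 8.50% with a median of 6.15%. CB and the other regions did not overlap. It was highest in PFC, at 8.50%, 8.15%, 6.90% and 7.77%, and OC and DG, with medians of 4.53% and 4.67%, lay between CB and the other regions. In bulk tissue, fewer cells of a type and less RNA per cell cannot be told apart. Part of the gap to CB was held by the C6ORF142 circle, which was at 0 in CB. Without it, an alternative chosen after seeing the data, the CB values stayed as they were and the other libraries ranged from 3.34% to 6.57%, so that OC of pool 10M (3.34%) fell within the CB range. Without the 10 circRNAs with most reads CB ranged from 1.65% to 2.45% and the others from 2.16% to 5.09%.

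As a percent of the exonic circRNAs found, different long-range circRNAs were also fewest in CB. They were 3.93% to 4.47% of the exonic circRNAs found in a CB library and 5.08% to 7.73% elsewhere. With every library thinned to 18813 reads the ranges were 3.32% to 4.10% in CB and 4.24% to 7.39% elsewhere, again without overlap, and 59.9 to 77.5 of them were found in CB against 79.1 to 153 elsewhere (means of 10 draws). At full depth a library held 69 to 549, and by number the median was lowest in DG, at 178 against 243 in CB. The hosts of long-range circRNAs held 34.6% to 36.4% of the exonic reads in CB and 36.4% to 42.1% elsewhere, and of these hosts' reads the long-range circles held 6.99% to 9.76% in CB and 9.80% to 20.2% elsewhere. A lower share in CB without overlap was also seen at 10 to 20 kb, where circRNAs held 11.5% to 12.8% of the exonic reads in CB and 13.4% to 18.7% elsewhere, whereas at 20 to 50 kb the ranges overlapped, 10.1% to 11.6% in CB and 10.6% to 14.2% elsewhere. Across the 32 libraries the long-range share and the number of back-splice reads had a Spearman coefficient of 0.507, given as a description because the libraries share pools and regions, and 0.484 over the 28 libraries outside CB. The part of sequencing depth in the share was not tested.

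**Figure D2:**
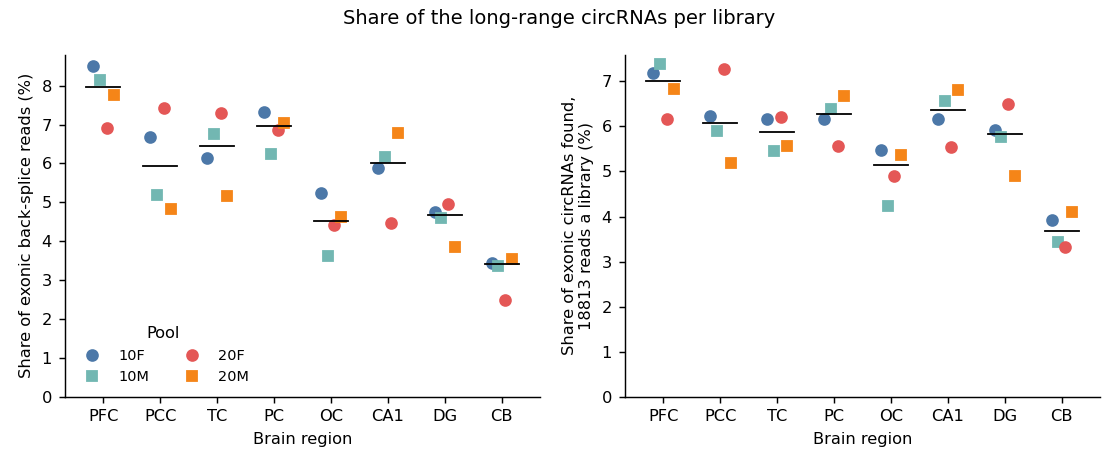
Left, percent of exonic back-splice reads held by circRNAs of 50 kb or more; right, their percent among the exonic circRNAs found after thinning each library to 18813 reads. Each point is a library, colour and shape give the pool, and the line is the median of 4. The 4 CB points lie below all 28 others in both panels, at 2.49% to 3.55% on the left.

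By age the share showed no common direction. Its median was 6.01% at 10 years (range 3.37% to 8.50%) and 5.06% at 20 years (2.49% to 7.77%), and it was higher at 20 years in 7 of the 16 pairs of libraries of the same region and sex. PFC was the only region in which both pairs moved the same way, with differences (20 minus 10 years) of −1.60 percentage points in females and −0.376 in males, and both ages overlapped over nearly their whole range.

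Of the 2513 long-range circRNAs, 57.3% (1439) were found in 1 region only, but 1376 of these were single-library circRNAs, so this count says little of regions. PFC listed the most, 1043, of which 323 were found nowhere else, and DG the fewest, 451 with 78. All 8 regions held 108.

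To ask which circRNAs were higher in a region, the 4 libraries of the region were compared with the other 28 by a two-sided exact permutation test of the mean TPM, without adjustment and with a threshold of 0.01. The study used a t-test at the same threshold here. The test covered the 17050 circRNAs that passed the filter. Of the 822 long-range circRNAs, 67 (8.15%) were higher in at least 1 region, against 8.49% of all tested. They numbered 4 in PFC (background 0.540%), 8 in PCC (0.727%), 12 in TC (1.04%), 8 in PC (1.28%), 7 in OC (0.452%), 12 in CA1 (0.733%), 5 in DG (0.534%) and 11 in CB (3.20%). As shares of the 822 these were between 0.487% and 1.46%. The share in CB, 1.34%, was below the background of CB. The filter itself favours circRNAs that are high in a group. With the region's own libraries left out of the filter, 56 of the 67 still passed it and 11 did not, namely those of GPHN in PFC, ATP9B (chr18:72465548-72587246) in TC, TFDP2 and DGKI in PC, SPECC1L, ZMAT4 and 1 of SND1 in OC, and RIMS1, INPP5A, 1 of ATP9B and 1 of CADPS2 in CB. All 67 had the same direction by limma on log2(TPM + 2.455), and 22 had an adjusted p under 0.05 there. A moderated F test over the 8 regions, also by limma with Benjamini-Hochberg adjustment over all 17050, found a difference in 30 of the 822 (3.65%, background 1.89%). In 14 of the 30 the region farthest from the mean of the other 7 was CB, and in 11 of these 14 CB was the lower one. The same split is not given here for the 322 called among all 17050, so it cannot be called particular to long-range circRNAs.

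**Figure D3:**
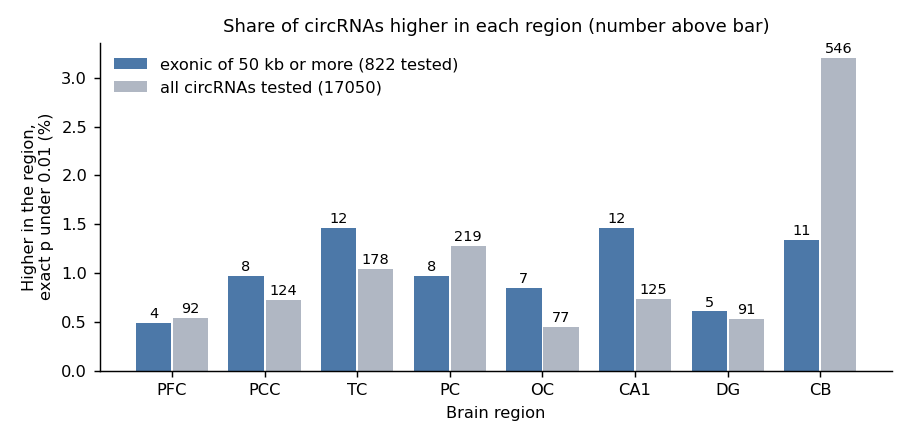
Percent of circRNAs higher in each region by the exact permutation test at p under 0.01, for the 822 exonic circRNAs of 50 kb or more (blue) and all 17050 tested (gray), with the number above each bar. The bars differ most in CB, where 11 long-range circRNAs (1.34%) stand beside 546 of all circRNAs (3.20%).

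The calls in CB did not lean one way in every test. By the exact permutation test 11 were higher and 3 lower (0.365%, background 0.217%). In the same limma fit, with CB against the mean of the other 7 regions, 13 long-range circRNAs were lower in CB (1.58%, background 0.727%) and 8 were higher (0.973%, background 2.00%). Of the 8 higher, 5 passed the filter only through CB, so their calls are a description. They were those of RIMS1, UNC13C and INPP5A, an ATP9B circle and a CADPS2 circle. Without CB of pool 10F, the shallowest library, limma gave 11 in each direction, without each pool in turn 3 to 10 higher and 6 to 9 lower, and 20 higher with all listed circRNAs in the fit. Backgrounds for these settings are not given here. The fitted difference was negative for 79.2% of the 822 (651), against 59.6% of the 11385 other exonic circRNAs tested and 63.8% of all. The median difference was −0.24 on the log2 scale, against −0.14 over all 17050. These differences describe levels relative to a library's own reads, and fitted values of circRNAs at 0 depend on the pseudocount.

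The C6ORF142 circle was at 0 in the 4 CB libraries. In PFC it stood at 3005, 2522, 3533 and 1718 TPM (10F, 10M, 20F, 20M), in TC at 1921, 4904, 4523 and 2520, and in PC at 2554, 1587, 2911 and 1793. It fell to 300 to 1106 in OC, 405 to 2037 in CA1 and 0 to 523 in DG, and was 2457, 0, 2341 and 935 in PCC. PFC, TC and PC were high throughout, DG was low and CB had no reads. CB was lower by limma (log2 difference −8.39, SE 1.06, adjusted p = 8.4e-06), and the difference among regions had an F-test adjusted p of 0.000394, which rose to 0.145 without pool 20F and to 0.0625 without pool 20M. TC was higher by the exact permutation test (p = 0.00170). The 15 other exonic circRNAs of the host had the same pattern, with 9 reads in CB, 0 to 51.0 per 1000000 back-splice reads of a library, against 333 to 6355 elsewhere. A second long-range circle from the same start (chr4:53822249-53917409) was also at 0 in CB, with a median of 50.5 TPM in the other libraries (limma log2 −4.12, SE 0.83, adjusted p = 0.00372).

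ERC2 encodes CAST, a scaffold of the presynaptic active zone. Its circle of 62017 bases (chr2:80422177-80484194, 2722 reads) stood at 0, 0, 2.17 and 0 TPM in CB and was above 0 in the 28 other libraries, from 6.21 to 254 with a median of 69.6. No other library was as low as CB (limma log2 −4.54, SE 0.47, adjusted p = 2.8e-07, F-test adjusted p = 4.7e-05). In CA1 it reached 107, 196, 33.5 and 254 TPM and was higher there by the exact permutation test (p = 0.00940). A wider ERC2 circle of 104332 bases (chr2:80379862-80484194), with the same end, was at 0 in CB, PC and OC and at 15.7, 61.8, 60.1 and 42.0 TPM in TC (F-test adjusted p = 0.000190, which was 0.0850 without pool 10M). The 8 other exonic circRNAs of ERC2 beside the first circle had no read in CB.

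The syntrophin genes gave a pair of circRNAs that were low in CB. That of SNTG1 (chr8:52945518-53003348) was at 0, 52.6, 33.7 and 101 TPM in CB and at 113 to 746 elsewhere, with no overlap (limma log2 −3.25, SE 0.50, adjusted p = 0.000137). That of SNTG2 (chr13:1242220-1298001, 3369 reads), which encodes γ2-syntrophin, was at 0 in CB and reached 458 TPM in PFC of pool 20F (limma log2 −3.88, SE 0.70, adjusted p = 0.00105), but it was also at 0 in 3 of 4 DG libraries and in PC of 10F. Its F-test adjusted p was 0.000571, and 0.0855 without pool 20M.

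The other long-range circRNAs lower in CB by limma were those of AIG1, LRRC7, DGKB, DPYD, RAPGEF5, CSMD3 and ENSMMUG00000008270, with log2 differences between −2.05 and −4.03 and adjusted p-values between 0.000101 and 0.0479. AIG1, a hydrolase of fatty acid esters, stood at 0, 36.1, 0 and 61.6 TPM in CB and at 40.9 to 309 elsewhere. LRRC7 encodes densin-180 of the postsynaptic density, DGKB diacylglycerol kinase beta, DPYD the first enzyme of pyrimidine breakdown and RAPGEF5 an exchange factor for RAP GTPases. Those of LRRC7, DPYD, RAPGEF5, CSMD3 and ENSMMUG00000008270 were at 0 in all 4 CB libraries. By the exact permutation test the 3 lower in CB were AIG1 (p = 0.00289), a MAP2K5 circle (chr7:46252188-46332120, p = 0.00706) at 0, 21.0, 0 and 0 TPM, and SNTG1 (p = 0.00781). In CB of pool 10F, where 1 read was worth 18.7 TPM, a 0 hides any level under 2 reads.

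Among circRNAs higher in CB, that of RIMS1, which encodes another active zone scaffold, had the smallest p. The circle of 57503 bases (chr4:68550028-68607531) stood at 150, 36.1, 47.8 and 11 TPM in CB, and outside CB only 2 libraries listed it, both of OC, at up to 2.85 TPM. CB and the other regions did not overlap (exact permutation p = 2.8e-05, the smallest this design can give; limma log2 4.13, SE 0.33, adjusted p = 2.0e-09). It held 86 reads, 81 in CB and 5 in OC, and passed the filter only through CB, so its values, p-values and lack of overlap are a description. Of its reads, 8 lay behind the value of 150, and without pool 10F the log2 difference was 3.52. It was a minor product of a host with many circRNAs in CB, since it held 0.192% of the host's reads and the 42 other exonic circRNAs of RIMS1 held 24345 to 43446 of each 1000000 back-splice reads in CB against 1166 to 9882 elsewhere.

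CTBP2 stood apart from RIMS1 in that its long-range circle was nearly the whole circular output of the host. It stood at 2228, 1450, 750 and 1141 TPM in CB and at 0 to 808 with a median of 257 elsewhere, and CA1 of pool 10M (808) was the only library outside CB above the lowest CB value. CB was higher by the exact permutation test (p = 5.6e-05) but not by limma, and 3 libraries outside CB were at 0 (limma log2 3.04, SE 0.92, adjusted p = 0.0788). The other exonic circRNA of the host had 51 reads in CB and 103 elsewhere.

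CADPS2 gave 2 circRNAs higher in CB. That of 71404 bases (chr3:159856896-159928300) stood at 74.9, 45.1, 18.5 and 66.0 TPM in CB and at up to 39.1 in 13 of the 28 others (exact permutation p = 0.000195, limma log2 3.13, SE 0.71, adjusted p = 0.0105). The 42 other exonic circRNAs of CADPS2 had 1020 to 1701 reads per 1000000 in CB and 0 to 292 elsewhere. ATP9B gave 4, of which the circle at chr18:72503628-72563364 stood at 0, 69.1, 47.8 and 66.0 TPM in CB and at up to 22.4 elsewhere, although the circle of ATP9B with most reads (chr18:72438949-72524151) was at 0, 252, 189 and 323 TPM in CB and at up to 436 elsewhere. The others were those of INPP5A, an inositol phosphate phosphatase (0, 7.51, 10.9 and 41.8 TPM in CB and 0 in all 28 others, so that it passed the filter only through CB), CAMK4, a calcium/calmodulin-dependent kinase (0, 472, 261 and 376 against up to 150), and ZFPM2 (chr8:107944965-108071288, 93.6, 162, 40.2 and 156, with 1 library outside CB, of DG, above all of these at 234). By limma alone a circle of UNC13C, a vesicle priming factor, was also higher in CB, at 150, 9.02, 5.43 and 0 TPM, of which the first rests on 8 reads. By function, 4 of the 33 tested circRNAs of the active zone list were higher and 2 lower in the limma contrast, and 4 of the 8 tested of the cerebellar neuron list were higher, against 2.00% and 0.727% of all tested. The same 4 circRNAs stand in both lists, those of RIMS1 and UNC13C and 2 of CADPS2, and 3 of them passed the filter only through CB. Both lists were chosen with earlier results of these data known, so these counts are a description.

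**Figure D4:**
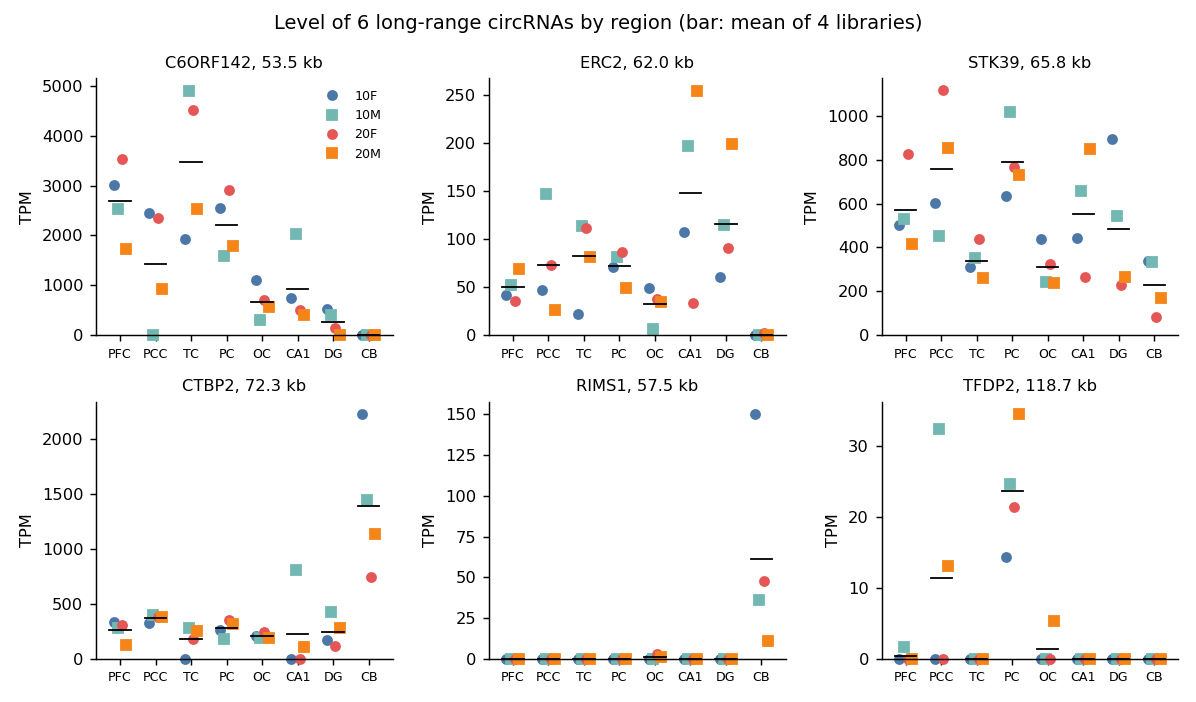
TPM of 6 long-range circRNAs in each library by region; colour and shape give the pool and the bar is the mean of 4 libraries. C6ORF142 and ERC2 are at or near 0 in CB, CTBP2 and RIMS1 are highest in CB (up to 2228 and 150 TPM), STK39 is present in all 32 libraries, and TFDP2 is highest on average in PC.

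In PFC the circRNAs that passed were those of DGKB, GPHN, SLC39A11 and KMT2C. The DGKB circle of 194273 bases (chr3:111445076-111639349) stood at 4.96, 21.4, 59.5 and 13.1 TPM in PFC and was listed in 4 of the 28 others at up to 13.0 (exact permutation p = 0.000111, limma log2 2.78, SE 0.45, adjusted p = 0.00499). The wide DGKB circle thus had most of its reads in PFC, while a narrower one from the same start (chr3:111445076-111504995, 2684 reads) was higher in TC, at 158, 329, 193 and 91.3 TPM (exact permutation p = 0.00350). GPHN, which encodes gephyrin of inhibitory synapses, gave 15.7, 5.77, 10.6 and 3.53 TPM in PFC against a single other library at 18.3 (exact permutation p = 0.00239, and 0.0119 without any of the pools 10M, 20F and 20M). This GPHN circle passed the filter only through PFC, so its values are a description. SLC39A11, a zinc transporter gene, gave 32.3, 1.73, 96.2 and 0 TPM, which rested on PFC of 10F and 20F (exact permutation p = 0.00640, and 0.0657, 0.0109 and 0.0672 without pool 10F, 10M or 20F). KMT2C, a histone methyltransferase gene, gave 14.9, 12.1, 0 and 9.57 TPM (exact permutation p = 0.00845).

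Of the 8 circRNAs higher in PCC, the 3 with the smallest p came from FMN1, SH3KBP1 and HOMER1. FMN1 encodes a formin that elongates actin filaments, and its circle (chr7:11084574-11138543) stood at 9.84, 100, 24.1 and 16.4 TPM in PCC and at up to 21.2 elsewhere (exact permutation p = 0.000834). Its call rested on pool 10M, without which p was 0.0138. SH3KBP1, an adaptor of receptor endocytosis, gave 42.2, 53.1, 20.2 and 42.7 TPM (chrX:17379144-17435434) against up to 54.5 in 11 of the others (exact permutation p = 0.000973). HOMER1 gave 77.3, 162, 0 and 88.6 TPM against up to 65.5 (exact permutation p = 0.00286), and without pool 10F, 10M or 20M the p was between 0.0143 and 0.0301. In PCC of 20F, the deepest library, the HOMER1 circle was at 0 where the other 3 PCC libraries gave 377 expected reads. The remaining 5 came from JAZF1, LPHN3, CSMD3, ATP9B and RERE.

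TC had 12, led by a DENND1A circle of 110839 bases (chr15:11877913-11988752) at 39.2, 82.3, 46.0 and 27.5 TPM, against up to 41.5 elsewhere (exact permutation p = 0.000417). This differs from the DENND1A circle with most reads, which starts at the same base, ends at 12000406 and reached 374 TPM in PFC and PCC of pool 20F. An ATP9B circle of 121698 bases (chr18:72465548-72587246) had 59 reads in 6 libraries, 4 of them of TC at 6.28, 10.3, 21.2 and 29.0 TPM (exact permutation p = 0.000862, 0.0119 and 0.0114 without pool 20F or 20M). This ATP9B circle passed the filter only through TC, so its values are a description. A circle of C9orf3, the aminopeptidase gene AOPEP, gave 33.0, 25.7, 33.0 and 0 TPM (chr15:106767131-106817630, exact permutation p = 0.000973), and its p was over 0.01 without pool 10F, 10M or 20F. Among the others in TC were 2 circles of C6ORF142, the wider ERC2 circle, and those of NEDD4L, DGKB, LRBA, AIG1 and RGS7. Several of these, namely C6ORF142, ERC2, DGKB and AIG1, were also among those lower in CB.

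In PC the smallest p belonged to TFDP2, which encodes a partner of E2F factors. Its circle of 118661 bases (chr2:145761303-145879964) stood at 14.3, 24.7, 21.4 and 34.5 TPM in PC and was listed in 4 of the 28 others, with a highest value of 32.4 in PCC (exact permutation p = 0.000195, limma log2 3.04, SE 0.40, adjusted p = 0.000199). This circle had 121 reads in PC and 28 elsewhere and passed the filter only through PC, so its values are a description. ATRNL1 gave a circle of 84782 bases (chr9:114765710-114850492) at 20.7, 82.0, 31.1 and 126 TPM in PC and at up to 48.8 in 6 others, the highest in PFC (exact permutation p = 0.000250, limma log2 3.92, SE 0.55, adjusted p = 0.000327). SGMS1, which encodes a sphingomyelin synthase, gave a circle of 156636 bases with 2134 reads at 121, 220, 143 and 114 TPM, against up to 189 elsewhere (exact permutation p = 0.00125), and it held 55.7% of its host's reads with no shorter exonic circRNA nested in it. The other 5 in PC came from CEP112 (ENSMMUG00000005637), ADK, DGKI, STAU2 and FTO.

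In OC the 3 with the smallest p were those of STXBP5 (tomosyn, an inhibitor of vesicle fusion), CUX1 (a homeodomain factor of upper cortical layers) and SPECC1L (a cytoskeletal crosslinker). STXBP5 gave 3.55, 23.8, 13.3 and 16.2 TPM against up to 9.57 (exact permutation p = 0.000167, limma adjusted p = 0.00388), and CUX1 10.1, 18.6, 16.1 and 18.9 TPM against up to 25.7 (exact permutation p = 0.000528, limma adjusted p = 0.0140). The SPECC1L circle was listed in 3 libraries, all of OC, at 12.4, 17.1 and 4.32 TPM from 47 reads, so it passed the filter only through OC and its values are a description. The levels in OC were low throughout. Of the remaining 4, SND1 gave 2, and ZMAT4 and CDKAL1 gave 1 each.

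CA1 had the only circRNA of the 67 beside RIMS1 whose region did not overlap the rest. The share without overlap among all tested circRNAs is not given here. The circle of TASP1, which encodes the protease that cleaves the histone methyltransferase MLL, stood at 33.5, 43.6, 46.1 and 71.5 TPM in CA1 (chr10:46694858-46752865) and at up to 33.0 elsewhere (exact permutation p = 2.8e-05). Its limma adjusted p was 0.0541, and 3 of the 4 CA1 values rested on 11 or 12 reads. In CA1 of pool 10F 1 read was worth 3.05 TPM, more than the gap between 33.5 and 33.0. ENSMMUG00000002361 (PALM2AKAP2, an anchoring protein of protein kinase A) gave 27.4, 43.6, 12.6 and 23.9 TPM against up to 13.1 (exact permutation p = 5.6e-05, limma log2 3.01, SE 0.46, adjusted p = 0.00219). RERE, present in every library, gave 725, 746, 255 and 431 TPM against 58.0 to 522 (exact permutation p = 0.00314, 0.0173 and 0.0430 without pool 10F or 10M). DNM3 was also among the 12, at 238, 349, 138 and 398 TPM in CA1 against up to 386 (exact permutation p = 0.00459), and so were the ERC2 circle of 62017 bases, LRRC7, 2 circles of DPYD, and those of CLEC16A, ANKS1B, ADAMTSL3 and RFWD2.

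The 5 circRNAs higher in DG came from MAD1L1, DNCI1 (DYNC1I1, a dynein intermediate chain), C9orf3, SCLT1 and CEP112. MAD1L1 gave 54.1, 18.2, 26.7 and 89.6 TPM (chr3:39947036-40014538) against up to 43.6 (exact permutation p = 0.000278, limma log2 3.44, SE 0.56, adjusted p = 0.00356). DNCI1 gave 24.1, 31.8, 0 and 25.5 TPM (exact permutation p = 0.000806) and C9orf3 72.2, 59.1, 0 and 14.9 TPM (exact permutation p = 0.00314), and each lost its call without pool 10F, 10M or 20M. The CEP112 circle reached 884 TPM in DG of 10F and 665 in DG of 20M, against 268 and 228 in the other 2 (exact permutation p = 0.00773). DG libraries of 10F, 10M and 20F had few reads, and 4 to 13 reads lay behind each of their values above 0 for MAD1L1, DNCI1 and C9orf3.

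Even the most abundant circRNAs were unevenly present between libraries of the same region. The STK39 circle of 65760 bases was above 0 in all 32 libraries, from 80.4 TPM in CB of 20F to 1119 in PCC of 20F. The wider STK39 circle, which shares its end, was at 212, 0, 0 and 0 TPM in TC and at 187, 0, 0 and 0 in CB, although it stood at 281 to 764 in PFC and 397 to 696 in PC. Of its 9 values at 0, 3 were in TC, 3 in CB and 1 each in PCC, CA1 and DG, and none were in PFC, PC or OC. Where the other 3 libraries of a region all had reads and gave at least 20 expected reads at the library's depth, 207 of 1268 values of long-range circRNAs (16.3%) were nevertheless listed at 0. For shorter exonic circRNAs this was 15.9% (3522 of 22213), so such zeros were as frequent there. With over 100 expected reads it was 6.53% (26 of 398) against 8.59%. Among them were the C6ORF142 circle in PCC of 10M, with 683 expected reads, and in DG of 20M, with 458. PFC of 20F alone held 47 of the 207, from 108 such values. It is 1 of the 5 libraries in which nearly all reads were clean. The others were PC of 10M (21 of 90), DG of 20M (10 of 37), CA1 of 20M (7 of 45) and PCC of 20F (7 of 43). All but PC of 10M were of 20 years. Among the remaining libraries PC of 20F held the most, 13 of 77. Several region and age calls above rest on such zeros, and their source was not tested.

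Age was compared with Student's t-test (two-sided) on the TPM of 16 libraries at each age, unadjusted and with a threshold of 0.05. At 20 years 10 of the 822 long-range circRNAs were higher (1.22%, background 1.52%) and at 10 years 10 were higher (1.22%, background 1.45%). Neither share exceeded its background. The split between the directions rested on single pools. Without pool 20F or 20M, 1 and 2 were higher at 10 years and 22 and 20 at 20 years, and without pool 10F or 10M, 18 and 30 were higher at 10 years and 3 and 2 at 20 years. The shares of all tested circRNAs without each pool are not given here, so this shift cannot be called particular to long-range circRNAs. All 20 had the same direction in both sexes, but 4 of those higher at 20 years (CDKAL1, TMTC2, ARHGAP26 and ADK) and 6 of those higher at 10 years (GPHN, CDC14A, LCORL, STK39, NALCN and DMD) passed the filter only through the age at which they were higher. By limma with region and sex as covariates, 1 long-range circRNA differed by age at an adjusted p under 0.05 (0.122%, background 0.0293%), and none did with the pair of region and sex as a block or by voom. The median fitted difference, 20 minus 10 years, was 0.07 on the log2 scale over the 822 and 0.08 over all 17050.

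That circRNA came from CRYL1, which encodes λ-crystallin 1, an L-gulonate dehydrogenase of sugar metabolism. The circle of 75605 bases (chr17:1079593-1155198, 502 reads) was above 0 in 15 of 16 libraries at 20 years and in 5 of 16 at 10 years. Its values ran from 0 to 41.3 TPM with a median of 17.3 and a mean of 19.6 ± 12.1 (SD, n = 16) at 20 years, and from 0 to 14.5 with a median of 0 and a mean of 2.95 ± 5.22 (SD, n = 16) at 10 years. The ages overlapped below 14.5 TPM. At 20 years the highest values were 41.3 in TC, 35.2 in PC, 33.5 in CA1 and 33.0 in PCC, all of pool 20F, and PCC of 20M was at 0. The t-test gave p = 2.0e-05, a permutation test with 100000 draws 6.0e-05, and limma a log2 difference of 2.21 (SE 0.37, adjusted p = 0.0177), with 13 of 16 pairs higher at 20 years. The t-test kept its call without each pool in turn and without the libraries in which nearly all reads were clean, most of which were of 20 years, whereas limma did not call it without pool 10F, 20F or 20M. The 12 other exonic circRNAs of CRYL1 summed to 182 reads per 1000000 at 20 years and 82.0 at 10 years, against 101 and 17.1 for the long-range circle.

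The other circRNAs higher at 20 years were weaker. A MAD1L1 circle (chr3:39903030-39960174, 1892 reads) had a mean of 69.4 ± 43.9 TPM at 20 years and 31.7 ± 37.0 at 10 years (SD, n = 16, t-test p = 0.0134), and it lost its call without pool 10F or 20M. CSMD3, a large membrane protein gene, gave 14.5 ± 11.3 and 5.70 ± 7.82 TPM (n = 16, p = 0.0160), with 12 of 16 pairs higher at 20 years, and lost its call without pool 10M. MAP2K5, a kinase of the ERK5 pathway, gave 15.4 ± 15.7 and 5.05 ± 7.53 TPM (n = 16, p = 0.0232, and 0.0522 by an exact sign-flip test over pairs). CDKAL1, a tRNA-modifying enzyme gene, gave 6.21 ± 8.93 and 0.826 ± 1.64 TPM (n = 16, p = 0.0242), and its highest values were in pool 20F. The CDKAL1 circle passed the filter only through the libraries of 20 years, so its values are a description. MAP2K5 lost its call without pool 10F or 10M and CDKAL1 without pool 10F, 10M or 20F. The limma adjusted p of MAD1L1, MAP2K5 and CDKAL1 was 0.810 and that of CSMD3 0.413. The rest came from TMTC2, ARHGAP26, MDGA2, ADK and SNTG1.

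At 10 years the smallest p belonged to GPHN, CDC14A, ENSMMUG00000008270, LCORL and STK39. The GPHN circle of 106488 bases (chr7:130119730-130226218) had a mean of 6.43 ± 9.06 TPM at 10 years and 0.570 ± 1.56 at 20 years (SD, n = 16, t-test p = 0.0162), and was above 0 in 7 and 2 libraries. CDC14A, a phosphatase gene, gave 12.8 ± 17.3 and 2.31 ± 5.13 TPM (n = 16, p = 0.0269). Those of ENSMMUG00000008270 and LCORL, a gene for a transcription factor, had p-values of 0.0302 and 0.0312. An STK39 circle of 52004 bases (chr12:31639015-31691019) was listed in 5 libraries of 10 years and in none of 20 years, with 33 reads in all. The circles of GPHN, CDC14A, LCORL and STK39 passed the filter only through the libraries of 10 years, so their values are a description. For these circles and that of ENSMMUG00000008270 the limma adjusted p was 0.810, and each of the 4 other than STK39 lost its call without at least 1 pool. The others came from NALCN, BACH2, FOXP1, DMD and HOMER1. The HOMER1 circle had a mean of 40.4 TPM at 10 years and 15.5 at 20 years.

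**Figure D5:**
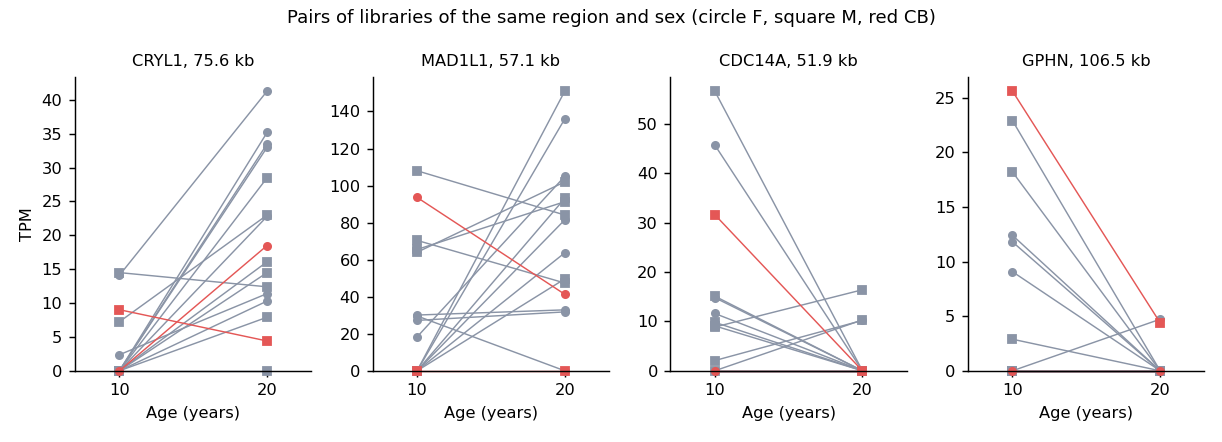
TPM at 10 and 20 years of long-range circRNAs of CRYL1, MAD1L1, CDC14A and GPHN. Lines join the libraries of the same region and sex, circles are females, squares males and red marks CB. CRYL1 is higher at 20 years in 13 of 16 pairs; in the other 3 panels the lines cross or run along 0.

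By host list, the circRNAs that differed were few, and they stand beside 8.49% of all tested circRNAs higher in at least 1 region, 1.52% higher at 20 years and 1.45% at 10 years. In the active zone list, 6 of 33 tested were higher in a region and none differed by age in the t-test, and in the postsynaptic density list 3 of 20 were higher in a region and 2 were higher at 10 years. Of 63 tested circRNAs of kinases and phosphodiesterases, 5 were higher in a region, 1 was higher at 20 and 1 at 10 years, and of 66 of RNA-binding and transcription genes 5 were higher in a region and 1 at 10 years. Ion channel genes had none of 20 higher in a region and 1 at 10 years, adhesion and guidance genes 1 of 32 in a region and 1 at 20 years, and cytoskeletal and GTPase regulators 1 of 41 in a region and 1 at each age. In the fragile site list 4 of 34 were higher in a region, 1 at 20 and 2 at 10 years, and in the cerebellar neuron list 3 of 8 in a region. None of the 3 tested circRNAs of receptor genes, the 8 of astrocyte genes and the 1 of an oligodendrocyte gene passed a test of region or age at these thresholds. Hosts of these lists overlap, circRNAs of a host share ends, and the lists were chosen with earlier results of these data known.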

How the data were processed

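RNase R-treated libraries were sequenced as pairs on an Illumina system. The authors trimmed reads with Cutadapt, aligned them with BWA and called back-splice junctions with CIRI2, keeping those with 2 or more junction reads in a library. Their build and tool versions are not given in the sources used here. The deposited values, named TPM by the authors, were whole multiples of 1 constant per library within 0.05 of a step for 100% of values, from which reads were recovered. Depth was 18813 to 894932 back-splice reads, which limits the precision of low values by counting error, and some values at 0 were lower than counting error gives.

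Members and lists were chosen with earlier results of these data known. The filter kept circRNAs with 3 or more reads in 2 or more libraries of 2 or more areas, those in 1 area with 6 or more libraries, and those with 30 or more reads, 17050 in all. Regions were compared by exact permutation tests over all 35960 choices of 4 libraries (threshold 0.01) and ages by unpaired t-tests (0.05), both unadjusted. The study used t-tests for both, on values it had normalized by size factors, and the tests here used the deposited TPM. limma 3.58.1 (R 4.3.3) was fitted on log2(TPM + 2.455), the pseudocount being the median smallest value, with age and sex or region and sex as covariates and Benjamini-Hochberg adjustment over all circRNAs tested (0.05). NumPy 2.4.6, SciPy 1.17.1 and pandas 2.3.3 were used under Python 3.11.15, and the tests were checked on simulated data. No count test was the main result because the deposited unit is TPM. p-values measure the spread between libraries, which come from 4 pools of 2 animals.

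The pools pair the libraries by design, since those of a pool come from the same animals. Residuals of libraries of the same pool had a median correlation of 0.0266 (−0.0234 to 0.0703, n = 112 pairs) and those of different pools −0.00789 (n = 336). Named were members in the study's primer table, the 10 with most reads, the 5 widest in 4 or more libraries, the 5 hosts with most members, the 3 smallest exact p per region, the 5 smallest t-test p per age direction with the same sign in both sexes, the 5 smallest F-test p, the neighbours of the threshold and the leading member of each host list. Ties in the exact p were broken by the limma p. Other members in the text were named after their values were seen, to account for all that passed a test. Alternatives were other scales, filters, pseudocounts, models and sets of libraries. Gene symbols are those of the table, and other names come from the reference annotation by gene identifier. Junction sequences were not used here because no genome of the table's build was at hand. The results of 1 host gene that these rules name are not reported here.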

Additional observations from a re-analysis of the deposited data

Results flagged for a closer look

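In 120 groups of 4 libraries, the gap between the farthest library and its nearest neighbour was compared with the range of the group by Dixon's test. It passed the 95% limit in 10 groups, and chance alone gives about 1 in 20. The long-range share of exonic reads in CB was 2.49% in pool 20F and 3.37% to 3.55% in the others. The FMN1 circle in PCC was at 100 TPM in 10M and 9.84 to 24.1 in the others. The STK39 circle of 115889 bases was at 212 TPM in TC of 10F and at 187 in CB of 10F, and at 0 in the other 3 libraries of each region. The CTBP2 circle in CA1 was at 808 TPM in 10M and 0 to 106 in the others. The CEP112 circle was at 515 TPM in PFC of 20F against 194 to 218, and at 92.1 in CA1 of 20F against 466 to 521. The SNTG1 circle in PC was at 746 TPM in 10M against 257 to 331, the ATP9B circle with most reads in TC at 417 in 10M against 167 to 190, and the DENND1A circle with most reads in CB at 131 in 10F against 15.2 to 24.2, where 131 TPM was 7 reads. These values had no part in choosing libraries, and their source was not tested.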

How the results depend on the processing

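No result reversed under the alternatives run. With only circRNAs above 0 in at least 16 libraries, members higher in any region fell from 67 to 33, in PFC from 4 to 0, PCC from 8 to 4, PC from 8 to 4, OC from 7 to 0, DG from 5 to 2 and CB from 11 to 6. The same filter gave 16 in the F test (30), 4 higher in CB by limma (8) and, by age, 7 in all (20), 2 higher at 10 and 5 at 20 years (10 each). It left 136 of the 822 long-range circRNAs to test. The unadjusted p of a circRNA by region or age was the same under it, so those counts fell because fewer were tested. Reads divided by size factors gave 14 in PFC, 5 in PCC, 7 in CA1 (12) and 10 in DG, and TPM scaled to the same total gave 14, 5, 7 and 9. Without the 5 libraries in which nearly all reads were clean there were 13 in PFC, 28 in PC, 8 in DG, 15 in the F test and 2 higher at 10 years. On log2 values 32 differed by age, 18 of them higher at 10 years. The limma contrast of CB gave 20 higher with all circRNAs of the table and 5 with a pseudocount of 0.2455. By limma, 0 differed by age with all circRNAs, with the block of pairs and by voom (1). The median number found per library was 109 after thinning (256), and without the 10 members with most reads, chosen after seeing the data, the median share was 3.58% over all libraries (5.56%), 2.18% in CB and 3.64% outside CB. The cause of the other changes was not tested. For the alternatives here and below the share of all circRNAs called is not given, so these counts have no background beside them.

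Leaving out each pool in turn gave 38 to 46 members higher in any region, with 2 to 6 in PFC, 3 to 5 in PCC, 5 to 10 in TC, 5 to 9 in PC, 2 to 5 in OC, 3 to 11 in CA1, 2 to 4 in DG and 5 to 11 in CB, 8 to 16 in the F test, 3 to 10 higher and 6 to 9 lower in CB by limma, and by age 21 to 32 in all, 1 to 30 higher at 10 years, 2 to 22 at 20 years and 0 to 1 by limma. Without CB replicate 1 (pool 10F), also chosen after seeing the data, 66 were higher in any region, 14 in CB, 24 differed in the F test, and 11 were higher and 11 lower in CB by limma.

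With the replicate block, that is with labels permuted within pools, 62 were higher in any region, with 5, 8, 10, 8, 6, 10, 4 and 11 from PFC to CB. With pool as a factor the F test gave 29, and 8 were higher and 13 lower in CB. Over pairs of region and sex 8 were higher at each age, 16 in all. Among named members the block changed the call of MAP2K5 (p = 0.0522) and STK39 (p = 0.0625) by the exact sign-flip test. Of the named region results, 126 of 127 values kept their call under alternatives other than leaving out a pool or a library, and 94 of 120 under the latter. For the named age results the counts were 69 of 85 and 18 of 40. The filter of 16 libraries did not test named circRNAs above 0 in fewer, and these are left out of the 127 and the 85.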
